A study of Mus musculus with 9 samples.

Results

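The genes described here are 9 members of the NF-kB pathway: the subunit genes Nfkb1, Nfkb2, Rela and Relb, the inhibitors Nfkbia and Tnfaip3, and the induced targets Icam1, Vcam1 and Birc3. They were chosen by gene name, and each name matched 1 of the 33175 genes with a count in at least 1 library. Their RNA was counted in the hippocampus of female mice aged 9 months, in 3 groups of 3 libraries each. The 3xTg LP-10d group carried the 3xTg alleles and received LP-10d, a compound named here only by this code, by mouth at 10 mg/kg, 4 times per week for 1 month. The 3xTg vehicle group carried the same alleles and received blank solvent by mouth 4 times per week, as did the WT vehicle group, labelled C57BL/6J. The genotype is labelled APPSwe/tauP301L/PS1M146V in 3xTg vehicle replicate 1, and the number in its last part goes up by 1 from each 3xTg library to the next, to PS1M151V in 3xTg LP-10d replicate 3; 1 line is assumed here. In the 3xTg line as commonly described, mutant human APP and tau are driven in neurons by the Thy1 promoter, on a background that is not pure C57BL/6J, so strain and transgenes cannot be told apart in any comparison with WT vehicle. The labels do not say that the libraries of a group come from separate animals, so p-values measure the spread between these libraries, which may be technical.

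NF-kB is a family of dimeric transcription factors that wait in the cytoplasm, held by IkB proteins. Signals such as tumour necrosis factor, interleukin-1 or Toll-like receptor ligands activate the IkB kinase complex, IkB is degraded, and dimers such as p50 with p65 enter the nucleus and bind kB sites. Among the genes they induce are their own inhibitors, which end the response. In the brain the pathway is best known in microglia, astrocytes and endothelial cells, and basal activity has also been described in neurons. These data count RNA only: activity of the factors, which is set mainly by where the proteins are, was not measured.

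The 3 promoters below are shown because the windows around the start sites of these members hold a kB-type sequence, the short DNA element that NF-kB dimers recognise. Promoter windows of 300 bases, from 250 before to 50 after the annotated start (RefSeq, GRCm38.p6), were used for 6 of the 9 members (Nfkb2, Rela, Nfkbia, Tnfaip3, Icam1 and Birc3). The motif searched was GGG, then any 2 bases, then TTTCC, on both strands, and no other motif was searched. It was found in 1.63% of the 32851 windows of that length. These 6 members have 9 of the windows, and 5 of the 9 held a match, in 3 of the 6 members. Among these 5 are the overlapping Nfkb2 windows described below, which share 1 match. Capitals mark the match, and each sequence reads 5′ to 3′ on the strand of its gene.

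Nfkbia, chr12:55492598-55492897, minus strand: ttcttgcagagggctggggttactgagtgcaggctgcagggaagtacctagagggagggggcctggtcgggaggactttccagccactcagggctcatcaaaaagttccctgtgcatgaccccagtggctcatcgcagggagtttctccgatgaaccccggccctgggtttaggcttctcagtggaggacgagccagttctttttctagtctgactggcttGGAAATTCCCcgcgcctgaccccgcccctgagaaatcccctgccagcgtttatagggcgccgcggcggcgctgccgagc

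Tnfaip3, chr10:19015361-19015660, minus strand: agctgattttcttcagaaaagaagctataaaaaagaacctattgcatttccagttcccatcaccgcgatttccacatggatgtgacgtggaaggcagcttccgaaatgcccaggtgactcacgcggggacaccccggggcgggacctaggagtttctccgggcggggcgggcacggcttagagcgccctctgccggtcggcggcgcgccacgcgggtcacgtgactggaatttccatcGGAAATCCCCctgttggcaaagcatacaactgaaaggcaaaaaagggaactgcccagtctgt

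Nfkb2, chr19:46304487-46304786, plus strand: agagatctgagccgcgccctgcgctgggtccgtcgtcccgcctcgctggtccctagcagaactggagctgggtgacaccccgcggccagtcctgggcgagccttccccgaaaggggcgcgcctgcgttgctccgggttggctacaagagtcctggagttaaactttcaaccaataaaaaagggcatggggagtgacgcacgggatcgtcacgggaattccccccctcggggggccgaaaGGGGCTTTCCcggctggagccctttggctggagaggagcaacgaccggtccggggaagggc

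In Nfkbia the match reads GGGAATTTCC on the opposite strand and lies at -29 to -20 from the start site, which is counted as +1. In Tnfaip3 it reads GGGGATTTCC on the opposite strand at -12 to -3. In the Nfkb2 window shown it reads GGGGCTTTCC on the gene's strand at -11 to -2. Nfkb2 has 2 further annotated starts, whose windows overlap and share 1 match, GGGACTTTCC. A match describes these letters and is not evidence that a factor binds there.

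The libraries held 16582086 to 19170969 counts each. All 9 members passed the filter on low counts, with 30 to 804 counts per library. Marker genes of hippocampal neurons were present in every library, with summed CPM (TMM-scaled counts relative to library size) of 529 to 544 in 3xTg LP-10d, 346 to 572 in 3xTg vehicle and 589 to 796 in WT vehicle. Of these, Zbtb20 was at 172 to 189.9 CPM in 3xTg LP-10d libraries, 134 to 195 CPM in 3xTg vehicle libraries and 203 to 259 CPM in WT vehicle libraries. A pair of libraries stood apart. In 3xTg vehicle replicate 2 the striatum and thalamus markers summed to 1302 CPM, against 130 to 306 CPM in the others, with the striatal Ppp1r1b at 340.2 CPM. The mitochondrial share was 5.04% of all counts in WT vehicle replicate 3 and 2.28% to 2.86% elsewhere. The 11 choroid plexus markers, led by Ttr, varied widely within groups: 3xTg LP-10d libraries held sums of 47.8 to 2749 CPM, 3xTg vehicle libraries 55.3 to 970.1 CPM and WT vehicle libraries 67.6 to 4553 CPM. None of the marker genes was at 0 in all libraries. In bulk tissue, fewer cells of a type and less RNA per cell cannot be told apart.

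Per length, the members fell into 3 tiers of abundance that were shared by all groups. FPKM, the deposited unit, in which counts are divided by gene length and library total, is used here to compare genes. The order of genes therefore depends on the gene lengths used, which were not checked here. Nfkbia, the gene of the inhibitor IkB alpha, averaged 12.1 FPKM over the 9 libraries (8.73 to 15.8) and Rela, the gene of p65, 10.7 FPKM (9.26 to 13.7). These ranges overlapped, and Nfkbia was above Rela in 6 of 9 libraries. Relb, Nfkb1 and Vcam1 followed at 2.40, 2.37 and 2.11 FPKM, with ranges that also overlapped. Rela was above Relb in all 9 libraries, and their ranges did not meet. Tnfaip3 averaged 1.16 FPKM, below Vcam1 in all 9 libraries. Nfkb2 was at 0.863 FPKM and Icam1 at 0.760 FPKM, with overlapping ranges, and Birc3 was lowest at 0.424 FPKM, below Icam1 in all 9 libraries.

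**Figure D1:**
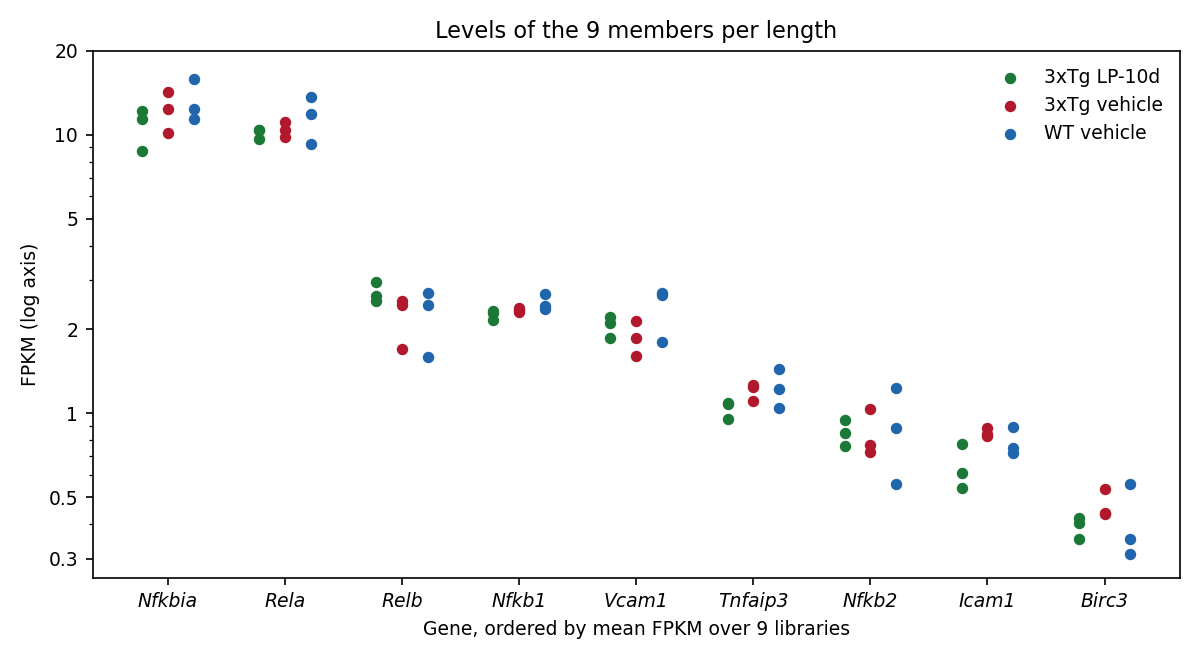
Deposited FPKM of the 9 members in each library, on a log axis, with genes ordered by their mean over 9 libraries and groups by colour. Nfkbia (8.73 to 15.8 FPKM) and Rela (9.26 to 13.7 FPKM) lie above the other members in every library.

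By FPKM, Rela also made up most of the RNA of the subunits. This share rests on the gene lengths used for FPKM. In counts over the 9 libraries Rela had 5381, Nfkb1 4646, Relb 1510 and Nfkb2 643. Of the summed FPKM of Rela, Relb, Nfkb1, Nfkb2 and Rel (the gene of c-Rel, added from the pathway list), Rela took 61.4% ± 1.75 in 3xTg LP-10d, 63.7% ± 2.07 in 3xTg vehicle and 64.2% ± 6.74 in WT vehicle libraries (SD, n = 3 each). The sum itself was 16.5 ± 0.367, 16.4 ± 1.21 and 18.0 ± 1.86 FPKM in the same 3 groups. Relb and Nfkb1 each took about as much as the other, 14.2% ± 2.96 and 13.98% ± 0.829 over the 9 libraries (SD), Nfkb2 took 5.10% ± 1.07 and Rel 3.60% ± 0.544. The ratio of Nfkbia to Rela FPKM ran from 0.839 to 1.26 in 3xTg LP-10d, 0.976 to 1.45 in 3xTg vehicle and 0.835 to 1.34 in WT vehicle libraries, so the groups overlapped.

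None of the 9 members passed the test in any of the 3 comparisons. The test was edgeR's quasi-likelihood test across all 17396 genes that passed the filter, with Benjamini-Hochberg adjustment and a threshold of 0.05. In 3xTg vehicle against WT vehicle 0 members passed, and 0.00575% of all genes did; 1 member, Vcam1, had an unadjusted p under 0.05, against 14.1% of all genes. In 3xTg LP-10d against 3xTg vehicle 0 members passed, as did 0% of all genes, and 1 member, Icam1, had an unadjusted p under 0.05, against 2.90% of all genes. In 3xTg LP-10d against WT vehicle 0 members passed, as did 0% of all genes, and 1 member, Nfkb1, had an unadjusted p under 0.05, against 8.75% of all genes. DESeq2 and limma-voom also called 0 members in each comparison. With DESeq2 the members under an unadjusted 0.05 numbered 1, 0 and 1 in these 3 comparisons, and with limma-voom 1 in each. A test of any difference among the 3 groups called 0 members and 0% of all genes; 0 members had an unadjusted p under 0.05, against 9.26% of all genes. For 3xTg LP-10d against 3xTg vehicle, a fit of these 6 libraries with the replicate number as a block called 0 members and 1 of all genes. The labels do not say that same-numbered libraries are pairs, and their deviations from the group means correlated only weakly (r = 0.104 to 0.375). Within the 3 same-numbered pairs 5 members (Rela, Nfkbia, Tnfaip3, Icam1 and Birc3) were lower in 3xTg LP-10d each time and 2 (Relb and Vcam1) higher, beside 15.3% and 15.5% of all genes. For Relb, Tnfaip3, Icam1 and Birc3 any numbering would give this, since their CPM did not overlap between these groups, so it adds nothing to that separation. The comparisons share libraries, so they are not independent of each other.

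**Figure D2:**
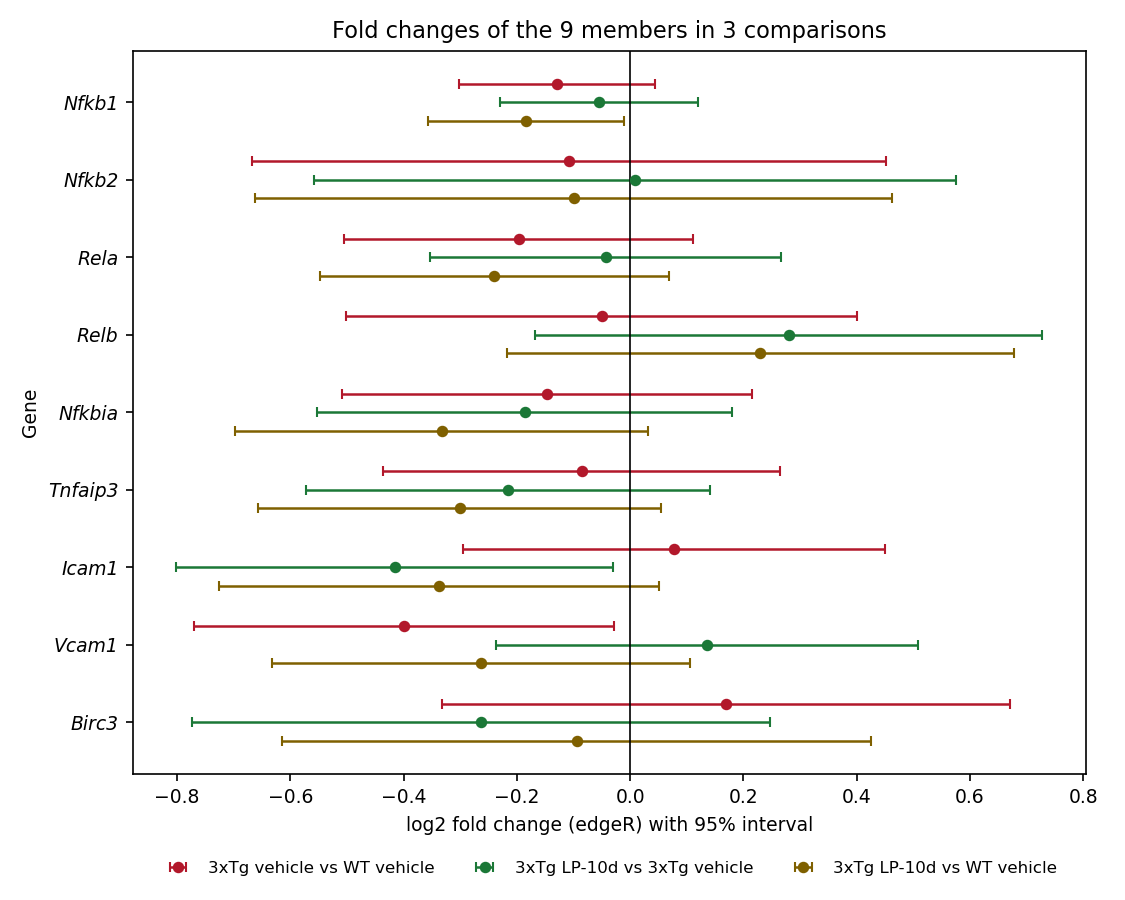
Log2 fold change of each member (points) with its 95% interval (bars) in 3 comparisons, from the edgeR fit of all 9 libraries. The points lie between -0.42 and 0.28, and 24 of the 27 intervals include 0.

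The subunit genes are described first. Rela (ENSMUSG00000024927, mm10 chromosome 19, 5637483 to 5648130) encodes p65, the subunit that carries the main transactivation domain. It had 31.4, 29.2 and 32.1 CPM in 3xTg LP-10d libraries, 31.8, 29.9 and 33.9 CPM in 3xTg vehicle libraries and 29.3, 35.5 and 44.7 CPM in WT vehicle libraries. WT vehicle replicate 3 was the highest library and the WT vehicle range covered nearly all of the other values. The log2 fold change of 3xTg vehicle against WT vehicle was -0.20 ± 0.14 (SE; edgeR adjusted p = 0.526), and it was 0.013 once both libraries that stood apart were left out. LP-10d against vehicle in 3xTg mice gave a ratio of 0.970 (95% interval 0.783 to 1.202) for Rela.

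Nfkb1 (ENSMUSG00000028163, mm10 chromosome 3, 135584655 to 135691547) encodes p105, the precursor of p50, which pairs with p65. It varied least of the 9 members (CV 6.24% over the 9 libraries), with 27.2, 27.6 and 26.2 CPM in 3xTg LP-10d libraries, 28.3, 27.5 and 28.5 CPM in 3xTg vehicle libraries and 29.4, 31.5 and 31.1 CPM in WT vehicle libraries. All 3 libraries of 3xTg LP-10d and all 3 of 3xTg vehicle lay below all 3 of WT vehicle, and the 2 groups of 3xTg libraries overlapped. For 3xTg vehicle against WT vehicle the log2 fold change was -0.13 ± 0.078 (SE; edgeR adjusted p = 0.472), and for 3xTg LP-10d against WT vehicle it was -0.18 ± 0.078 (SE; edgeR adjusted p = 0.569). The second of these was a ratio of 0.880 (95% interval 0.781 to 0.993). For 3xTg LP-10d against 3xTg vehicle the Nfkb1 ratio was 0.963 (95% interval 0.853 to 1.09). The summed hippocampal neuron markers shared this group difference: the sums in 3xTg LP-10d and 3xTg vehicle libraries were also all below those of WT vehicle. Taken singly, all 6 markers had log2 fold changes below 0 against WT vehicle, but most overlapped with it. Only 1 of 6 did not overlap for 3xTg vehicle and 2 of 6 for 3xTg LP-10d. Within groups the order of the sums and of Nfkb1 was not the same throughout. In WT vehicle the lowest sum, 589 CPM, stood in replicate 2, where Nfkb1 was highest. In 3xTg LP-10d the highest sum, 544 CPM, stood in replicate 3, where Nfkb1 was lowest. In 3xTg vehicle both were lowest in replicate 2. The part of these markers in the Nfkb1 values was not tested. The separation of 3xTg vehicle from WT vehicle depended on the scaling, since the deposited FPKM, which are not TMM-scaled, reached 2.38 in 3xTg vehicle and went down to 2.37 in WT vehicle.

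Relb (ENSMUSG00000002983, mm10 chromosome 7, 19606217 to 19629438) and Nfkb2 (ENSMUSG00000025225, mm10 chromosome 19, 46304320 to 46312385) encode RelB and p100, the precursor of p52, the pair of the non-canonical arm. Relb had 11.3, 10.1 and 9.88 CPM in 3xTg LP-10d libraries, 9.79, 6.53 and 9.42 CPM in 3xTg vehicle libraries and 10.9, 9.22 and 6.62 CPM in WT vehicle libraries. The 3 libraries of 3xTg LP-10d lay above the 3 of 3xTg vehicle, by 9.88 against 9.79 CPM at the nearest pair, and within the range of WT vehicle except for replicate 1. The log2 fold change of 3xTg LP-10d against 3xTg vehicle was 0.28 ± 0.20 (SE; edgeR adjusted p = 1.00), and it was 0.12 without 3xTg vehicle replicate 2. Against WT vehicle the log2 fold change was 0.23 ± 0.20 for 3xTg LP-10d and -0.050 ± 0.20 for 3xTg vehicle (SE; edgeR adjusted p = 0.691 and 0.932). The lowest Relb levels stood in the 2 libraries that stood apart, 3xTg vehicle replicate 2 and WT vehicle replicate 3.

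Nfkb2 had 3.84, 4.27 and 3.51 CPM in 3xTg LP-10d libraries, 4.74, 3.29 and 3.48 CPM in 3xTg vehicle libraries and 4.17, 5.502 and 2.73 CPM in WT vehicle libraries. WT vehicle alone spanned the lowest and the highest level of the 9 libraries, and no 2 groups separated. Its log2 fold changes were -0.11 ± 0.25 for 3xTg vehicle against WT vehicle and 0.0083 ± 0.26 for 3xTg LP-10d against 3xTg vehicle (SE; edgeR adjusted p = 0.864 and 1.00). Exons of Nfkb2 overlap, on the opposite strand, those of Psd, a gene at 716 to 786 CPM in 3xTg LP-10d, 678 to 819 CPM in 3xTg vehicle libraries and 666 to 918 CPM in WT vehicle libraries. Without a stated strand setting, a part of the 49 to 105 counts of Nfkb2 per library could be Psd reads; Psd too was lowest in WT vehicle replicate 3. Its part in the Nfkb2 values was not tested.

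**Figure D3:**
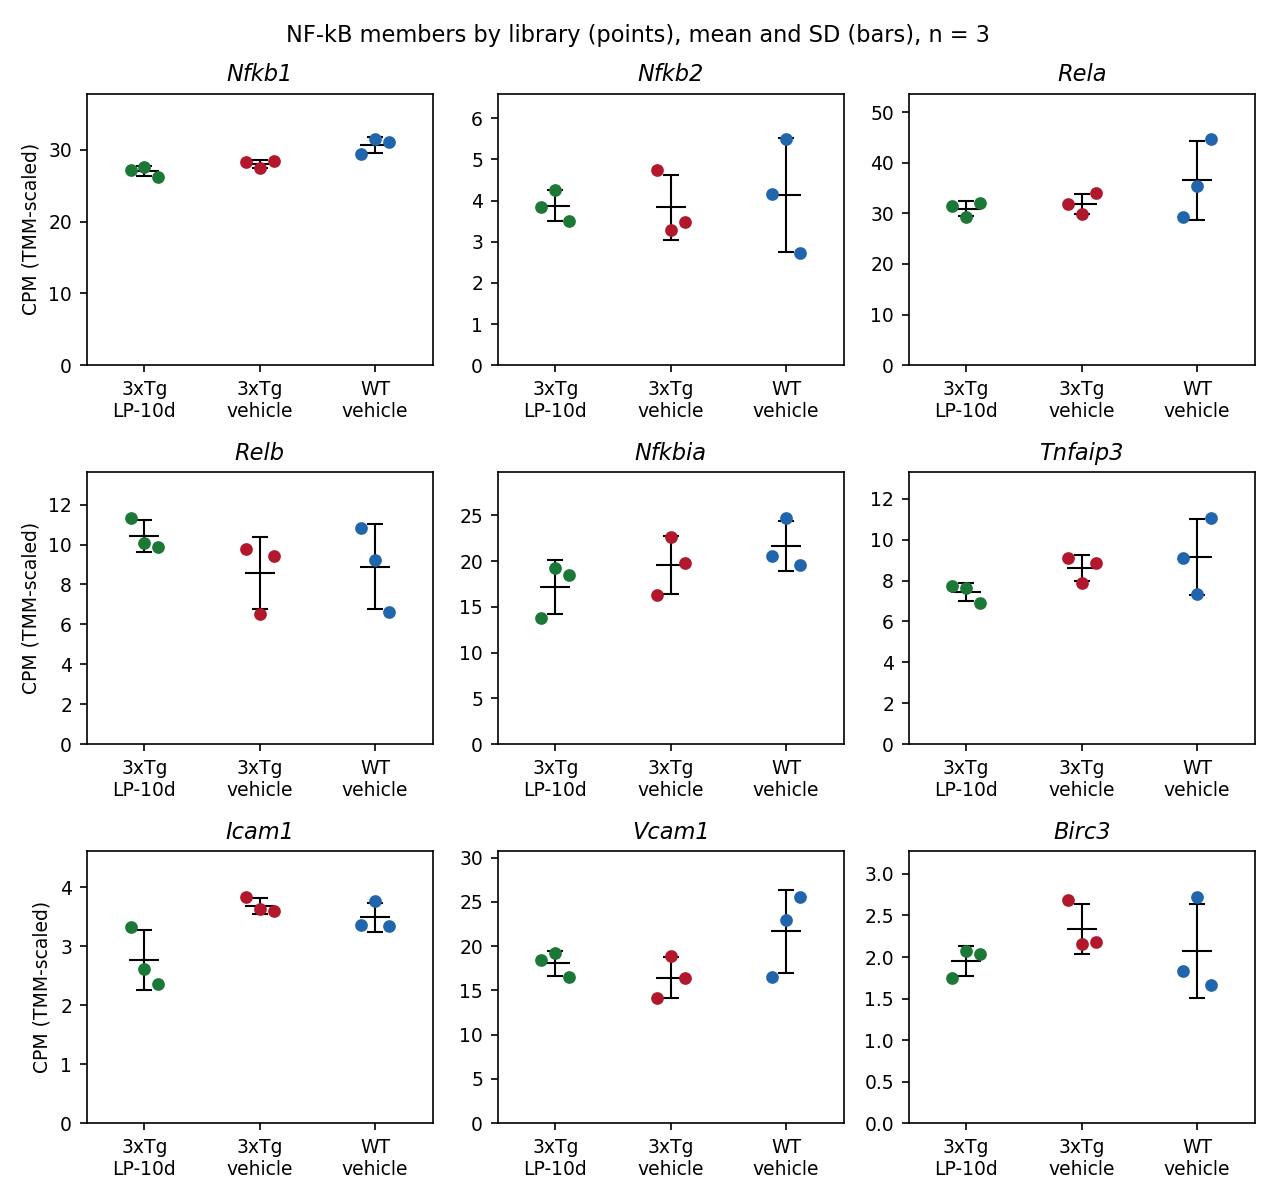
TMM-scaled CPM of each member by library (points), with the mean and SD of 3 libraries (bars); each panel starts at 0. All 3 groups overlap in the panels of Nfkb2, Rela and Vcam1, and Nfkb1 is lower in the 3xTg LP-10d (26.2 to 27.6 CPM) and 3xTg vehicle (27.5 to 28.5 CPM) libraries than in the WT vehicle libraries (29.4 to 31.5 CPM), without passing the adjusted threshold.

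The 2 inhibitors are themselves NF-kB targets and close the negative feedback. Nfkbia (ENSMUSG00000021025, mm10 chromosome 12, 55489410 to 55492647) encodes IkB alpha, which binds p65 dimers and keeps them out of the nucleus. It had 13.8, 19.3 and 18.4 CPM in 3xTg LP-10d libraries, 16.3, 22.6 and 19.8 CPM in 3xTg vehicle libraries and 20.6, 24.7 and 19.6 CPM in WT vehicle libraries. The lowest level stood in 3xTg LP-10d replicate 1 and the highest in WT vehicle replicate 2. All 3 libraries of 3xTg LP-10d were below those of WT vehicle, by 19.3 against 19.6 CPM at the nearest pair, while 3xTg vehicle overlapped both. On the deposited FPKM the separation was lost, with 3xTg LP-10d up to 12.2 and WT vehicle down to 11.4. Nfkbia was lower in 3xTg LP-10d than in 3xTg vehicle in 3 of 3 same-numbered pairs. The log2 fold changes were -0.15 ± 0.16 for 3xTg vehicle against WT vehicle, -0.19 ± 0.16 for 3xTg LP-10d against 3xTg vehicle and -0.33 ± 0.16 for 3xTg LP-10d against WT vehicle (SE; edgeR adjusted p = 0.689, 1.00 and 0.588).

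Tnfaip3 (ENSMUSG00000019850, mm10 chromosome 10, 19000910 to 19015657) encodes A20, a ubiquitin-editing enzyme that switches off signalling upstream of the IkB kinases. It had 7.73, 7.65 and 6.92 CPM in 3xTg LP-10d libraries, 9.10, 7.89 and 8.88 CPM in 3xTg vehicle libraries and 9.08, 7.34 and 11.1 CPM in WT vehicle libraries. The 3xTg LP-10d libraries lay below the 3xTg vehicle libraries, by 7.73 against 7.89 CPM at the nearest pair, and WT vehicle covered both groups apart from the lowest library. For 3xTg LP-10d against 3xTg vehicle the log2 fold change was -0.22 ± 0.16 (SE; edgeR adjusted p = 1.00). Between 3xTg LP-10d and WT vehicle it was -0.30 ± 0.16 (SE; edgeR adjusted p = 0.597). The value of 3xTg vehicle against WT vehicle was -0.085, and 0.067 without WT vehicle replicate 3, the library with the highest Tnfaip3 level.

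Among the induced targets, Icam1 (ENSMUSG00000037405, mm10 chromosome 9, 21015985 to 21028817) encodes an adhesion molecule to which leukocyte integrins bind on activated endothelium. It had 3.33, 2.61 and 2.36 CPM in 3xTg LP-10d libraries, 3.84, 3.63 and 3.59 CPM in 3xTg vehicle libraries and 3.37, 3.77 and 3.34 CPM in WT vehicle libraries. All 3 libraries of 3xTg LP-10d were below those of both other groups in CPM, while 3xTg vehicle and WT vehicle overlapped. The gap to WT vehicle was 3.329 against 3.337 CPM at the nearest pair, and on the deposited FPKM it was lost, with 3xTg LP-10d up to 0.776 and WT vehicle down to 0.718. The log2 fold change of 3xTg LP-10d against 3xTg vehicle was -0.42 ± 0.17 (SE), a ratio of 0.750 (95% interval 0.574 to 0.980), with an unadjusted p of 0.0374 and an adjusted p of 1.00 in edgeR. This log2 fold change stayed between -0.57 and -0.18 over the 21 alternatives, and -0.18 was its value in limma on log2(FPKM + 1), a scale that understates changes of low genes. Against WT vehicle the log2 fold change was -0.34 ± 0.17 for 3xTg LP-10d and 0.078 ± 0.17 for 3xTg vehicle (SE; edgeR adjusted p = 0.597 and 0.851). The counts behind the Icam1 values are low, 43 to 59 in 3xTg LP-10d and 64 to 73 in 3xTg vehicle, and the antisense gene Gm47079 overlaps exons of Icam1. Endothelial markers, led by Flt1, overlapped between the groups: they summed to 236 to 284 CPM in 3xTg LP-10d libraries, 240.1 to 280.1 CPM in 3xTg vehicle libraries and 246 to 267 CPM in WT vehicle libraries.

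Vcam1 (ENSMUSG00000027962, mm10 chromosome 3, 116109949 to 116129688) encodes the adhesion molecule bound by the leukocyte integrin VLA-4, and it is present in cerebral vessels and the choroid plexus. It had 18.5, 19.3 and 16.5 CPM in 3xTg LP-10d libraries, 14.2, 18.8 and 16.4 CPM in 3xTg vehicle libraries and 16.5, 23.0 and 25.6 CPM in WT vehicle libraries. WT vehicle replicates 2 and 3 were the highest libraries, and WT vehicle replicate 1 lay among the 3xTg vehicle values, so the groups overlapped. The log2 fold change of 3xTg vehicle against WT vehicle was -0.40 ± 0.17 (SE), a ratio of 0.758 (95% interval 0.587 to 0.981), with an unadjusted p of 0.0374 and an adjusted p of 0.330 in edgeR. This log2 fold change stayed between -0.56 and -0.23 over the 20 alternatives, with adjusted p of 0.151 to 0.604. For 3xTg LP-10d the Vcam1 ratio was 1.10 (95% interval 0.848 to 1.42) against 3xTg vehicle and 0.833 (95% interval 0.645 to 1.08) against WT vehicle (edgeR adjusted p = 1.00 and 0.629). Choroid plexus markers and Vcam1 were both lowest in replicate 1 of WT vehicle, where the marker sum was 67.6 CPM. The sums were 4553 and 2511 CPM in replicates 2 and 3, whereas Vcam1 was higher in replicate 3 than in replicate 2. In 3xTg LP-10d the sums of 1531, 2749 and 47.8 CPM in replicates 1, 2 and 3 had the same order as Vcam1. In 3xTg vehicle the replicate with the highest sum, 970.1 CPM, had the lowest Vcam1 level. Their part in the Vcam1 values was not tested. The antisense gene Gm43109 overlaps exons of Vcam1.

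Birc3 (ENSMUSG00000032000, mm10 chromosome 9, 7848699 to 7873186) encodes cIAP2, a ubiquitin ligase that protects cells from death after tumour necrosis factor. It was the scarcest member, at 30 to 52 counts per library, and had 1.75, 2.07 and 2.03 CPM in 3xTg LP-10d libraries, 2.68, 2.16 and 2.18 CPM in 3xTg vehicle libraries and 1.83, 2.73 and 1.67 CPM in WT vehicle libraries. WT vehicle spanned the whole range, and the 3xTg LP-10d libraries lay just below those of 3xTg vehicle, by 2.07 against 2.16 CPM at the nearest pair. The log2 fold change of 3xTg LP-10d against 3xTg vehicle was -0.26 ± 0.23 (SE; edgeR adjusted p = 1.00), a ratio of 0.833 (95% interval 0.585 to 1.19), and it was -0.14 without 3xTg vehicle replicate 1. Against WT vehicle the Birc3 ratio was 0.937 (95% interval 0.653 to 1.34) for 3xTg LP-10d and 1.12 (95% interval 0.794 to 1.59) for 3xTg vehicle.

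The levels of the 2 groups did not overlap for 1 of 9 members in 3xTg vehicle against WT vehicle, Nfkb1, which lay below. Of all genes 17.4% did not overlap there, 9.38% above and 7.99% below. Between 3xTg LP-10d and 3xTg vehicle 4 of 9 members did not overlap, with Relb above and Tnfaip3, Icam1 and Birc3 below, beside 11.6% of all genes, 5.82% above and 5.81% below. Between 3xTg LP-10d and WT vehicle 3 of 9 did not overlap, Nfkb1, Nfkbia and Icam1, all below, beside 14.4% of all genes, 7.49% above and 6.89% below. None of these members passed the adjusted test. On the deposited FPKM the members that did not overlap numbered 0, 4 and 1 in the 3 comparisons, beside 17.1%, 11.7% and 15.1% of all genes, since Nfkb1 of 3xTg vehicle, and Nfkbia and Icam1 of 3xTg LP-10d, then overlapped with WT vehicle. The median log2 fold changes of the 9 members were -0.11, -0.055 and -0.24 in these 3 comparisons, beside medians of 0.00066, -0.00033 and -0.0027 over all genes tested. By role, the 4 subunits had medians of -0.12, -0.018 and -0.14, the 2 inhibitors -0.12, -0.20 and -0.32, and the 3 targets 0.078, -0.26 and -0.26.

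Across libraries the members did not move as 1 block. Of the 36 pairs of members, 23 had a positive Pearson r of log2 CPM over the 9 libraries and 13 a negative one, with a median of 0.15; these values describe the libraries, which also differ in tissue makeup. The closest pairs were Nfkb2 with Birc3 (r = 0.72), Rela with Vcam1 (r = 0.68) and Nfkb1 with Rela (r = 0.65), and the most opposed was Relb with Vcam1 (r = -0.54). WT vehicle replicate 3 held the highest Rela, Tnfaip3 and Vcam1 and the lowest Nfkb2 and Birc3 levels of the 9 libraries. WT vehicle replicate 2 held the highest Nfkb1, Nfkb2, Nfkbia and Birc3 levels.

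**Figure D4:**
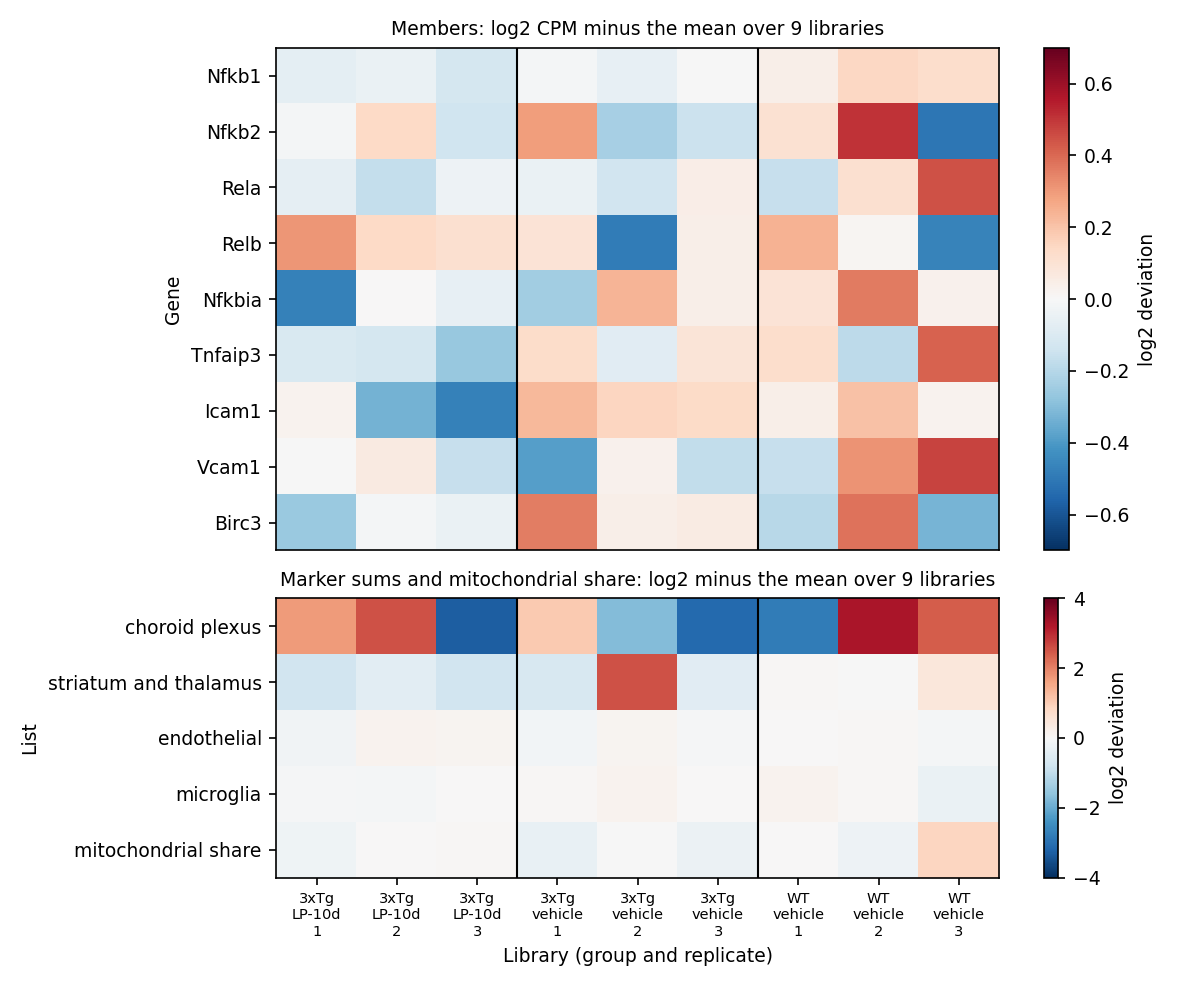
Upper panel, log2 CPM of each member minus its mean over the 9 libraries; lower panel, the same for summed CPM of 4 marker lists and for the mitochondrial share of counts, on a wider colour scale. WT vehicle replicate 3 holds the highest Rela, Tnfaip3 and Vcam1 levels and, at 5.04%, the highest mitochondrial share.

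The rest of the pathway was read from a list of 68 genes, of which 58 passed the filter. In edgeR 0 of them passed the adjusted threshold in either direction in any of the 3 comparisons. In 3xTg vehicle against WT vehicle 13 had an unadjusted p under 0.05. For 3xTg LP-10d this held for 2 against 3xTg vehicle and for 12 against WT vehicle. The shares of all genes under that p were 14.1%, 2.90% and 8.75%. DESeq2 called 1, Traf3, in the first comparison, and 0 in the others. Of the 5 cytokine genes on the list, Il18 was abundant, with 197 to 238 counts per library (10.2 to 13.2 FPKM) and log2 fold changes of 0.013, 0.013 and 0.026 (edgeR adjusted p of at least 0.947). The other 4 did not pass the filter. Tnf had 1 to 5 counts per library in 3xTg LP-10d, 0 to 2 in 3xTg vehicle and 0 to 1 in WT vehicle, and a count of 0 allows up to 3. Il1b, the gene of interleukin-1 beta, had 1 to 3 counts in 3xTg LP-10d, 4 to 8 in 3xTg vehicle and 0 to 5 in WT vehicle. Il1a had 3 to 13 counts per library, and Il6 had 5 counts over all 9 libraries.

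Of the 20 other induced targets, 14 passed the filter. Their median log2 fold changes were -0.016 in 3xTg vehicle against WT vehicle, 0.012 in 3xTg LP-10d against 3xTg vehicle and 0.034 in 3xTg LP-10d against WT vehicle. The survival gene Bcl2l1 (22.8 to 25.4 FPKM) and Sod2, the gene of a mitochondrial superoxide dismutase (12.1 to 14.5 FPKM), were the most abundant. The chemokine genes Cxcl10 and Ccl5 passed with 5 to 16 and 3 to 17 counts per library. The 6 targets that did not pass were the chemokine genes Ccl2, Cxcl1 and Cxcl2, with 21, 11 and 2 counts over all 9 libraries, the selectins Sele and Selp, with 3 and 12, and Saa3, with 6.

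**Figure D5:**
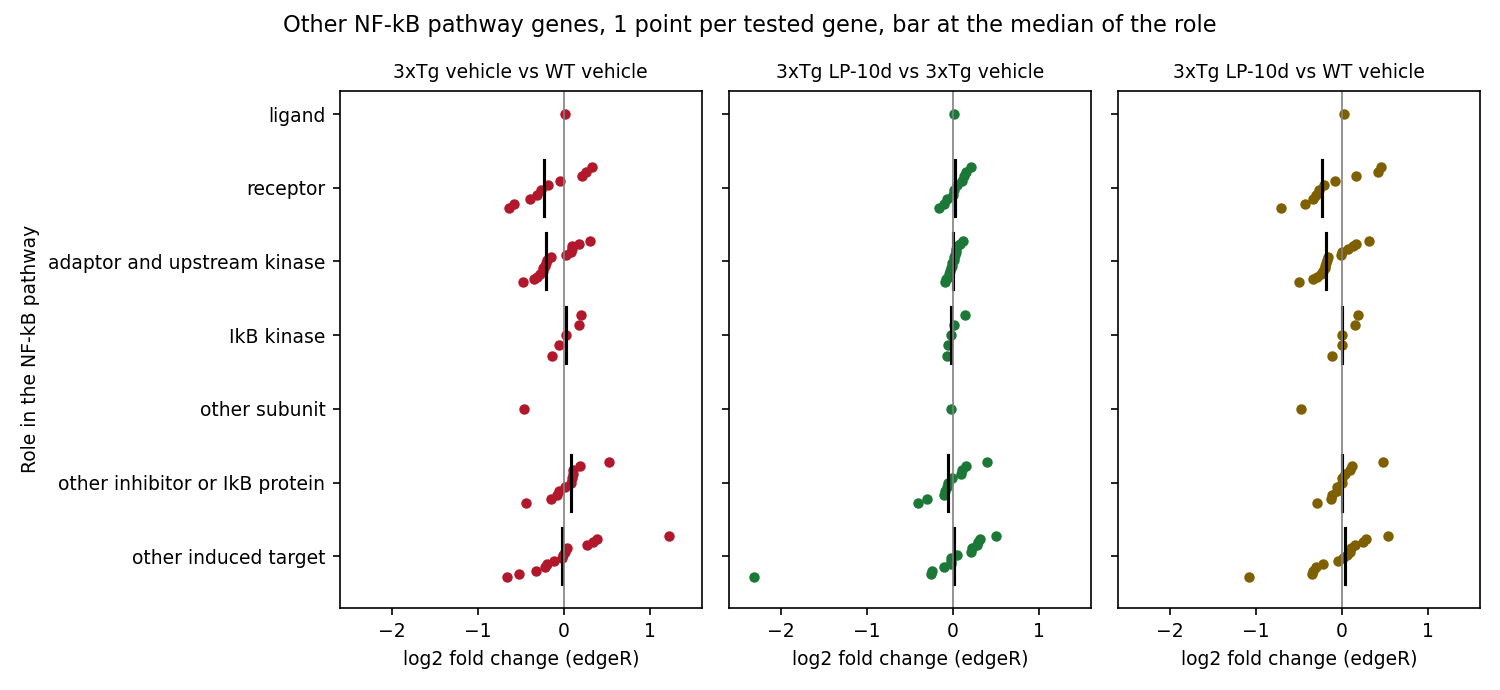
Log2 fold change of each tested pathway gene (points) by role, in 3 comparisons, with a bar at the median of the role. The points of 3xTg LP-10d against 3xTg vehicle lie between -0.41 and 0.50 apart from Lcn2 at -2.31, and medians of receptors and adaptors are -0.23 and -0.20 in 3xTg vehicle against WT vehicle.

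The kinases that release NF-kB come next. The 3 genes of the IkB kinase complex, Chuk, Ikbkb and Ikbkg, had log2 fold changes of 0.20, -0.050 and 0.17 in 3xTg vehicle against WT vehicle and of -0.057, -0.070 and 0.011 in 3xTg LP-10d against 3xTg vehicle (edgeR adjusted p of at least 0.421). The 10 receptor genes and the 16 adaptor and kinase genes had median log2 fold changes of -0.23 and -0.20 in 3xTg vehicle against WT vehicle, 0.028 and -0.0021 in 3xTg LP-10d against 3xTg vehicle, and -0.24 and -0.18 in 3xTg LP-10d against WT vehicle. An unadjusted p under 0.05 was reached by 2 receptor and 5 adaptor genes in both comparisons with WT vehicle, where 14.1% and 8.75% of all genes reached it, and by 0 in 3xTg LP-10d against 3xTg vehicle, where 2.90% did. None of them passed the adjusted test in edgeR. Both comparisons with WT vehicle share its 3 libraries.

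In 3xTg vehicle against WT vehicle the pathway genes with the smallest p were Nfkbiz, Ptgs2, Csf1 and Traf3, and in all 4, chosen for their p, the groups did not overlap, as in 17.4% of all genes. Nfkbiz encodes IkB zeta, a nuclear co-regulator of NF-kB. It had 11.2, 10.6 and 11.4 CPM in 3xTg LP-10d, 10.9, 8.97 and 9.86 CPM in 3xTg vehicle and 14.3, 12.5 and 13.7 CPM in WT vehicle libraries, with a log2 fold change of -0.44 ± 0.12 (SE; edgeR adjusted p = 0.181). Ptgs2, the inducible cyclooxygenase, which is also an activity-induced gene of hippocampal neurons, had 17.7, 19.9 and 20.03 CPM in 3xTg LP-10d, 17.2, 13.8 and 16.01 CPM in 3xTg vehicle and 24.1, 18.2 and 25.0 CPM in WT vehicle libraries, with a log2 fold change of -0.52 ± 0.14 (SE; edgeR adjusted p = 0.190). Csf1, a growth factor of microglia, was at -0.32, and the adaptor Traf3, which restrains the non-canonical arm, at -0.31 (edgeR adjusted p = 0.194 for both; DESeq2 adjusted p = 0.0431 for Traf3). Rel, the fifth subunit gene, had 3.16, 4.56 and 4.45 CPM in 3xTg LP-10d, 4.58, 3.58 and 4.14 CPM in 3xTg vehicle and 4.63, 5.71 and 6.62 CPM in WT vehicle libraries. Its log2 fold change was -0.46 ± 0.20 in 3xTg vehicle against WT vehicle and -0.017 ± 0.20 in 3xTg LP-10d against 3xTg vehicle (SE; edgeR adjusted p = 0.336 and 1.00).

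The sums of 3 marker lists also separated 3xTg vehicle from WT vehicle, as these pathway genes did. Taken singly, 1 of 6 hippocampal neuron, 3 of 5 oligodendrocyte and 1 of 4 tested blood markers did not overlap. Hippocampal neuron sums were lower, as given above, and oligodendrocyte sums, led by Mbp, were 4722 to 5979 CPM in 3xTg vehicle libraries and 6637 to 7116 CPM in WT vehicle libraries. Blood sums, led by Hba-a1, were higher, at 98.9 to 164 CPM in 3xTg vehicle libraries and 31.1 to 67.1 CPM in WT vehicle libraries. Sums of mural markers, led by Vtn, astrocyte markers, led by Slc1a2, and meningeal markers, led by Dcn, overlapped. The part of these in the pathway genes was not tested.

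Between 3xTg LP-10d and 3xTg vehicle the smallest p belonged to Lcn2, Mmp9, Ptgs2 and Cyld. Lcn2, the acute phase protein lipocalin 2, had 3, 2 and 3 counts in 3xTg LP-10d libraries and 27, 5 and 11 counts in 3xTg vehicle libraries, and 3, 11 and 4 counts in WT vehicle libraries. The log2 fold change of 3xTg LP-10d against 3xTg vehicle was -2.31 ± 0.72 (SE; edgeR adjusted p = 1.00), at counts too low to fix its size. The matrix metalloprotease gene Mmp9 had 2.60, 2.73 and 2.91 CPM in 3xTg LP-10d, 1.95, 1.70 and 2.18 CPM in 3xTg vehicle and 2.23, 1.83 and 1.61 CPM in WT vehicle libraries, and its log2 fold change was 0.50 ± 0.19 (SE; edgeR adjusted p = 1.00). Ptgs2 and Cyld, the gene of a deubiquitinase that restrains NF-kB, were at 0.29 and -0.30, and Cyld reached 167 CPM in 3xTg vehicle replicate 2, the library with striatal markers.

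Between 3xTg LP-10d and WT vehicle the smallest p belonged to Csf1, the interleukin-1 receptor gene Il1r1 and the kinases Irak1 and Ripk1, with log2 fold changes of -0.35, -0.70, -0.24 and -0.50 (edgeR adjusted p = 0.502 to 0.568). Il1r1 had 9.31, 11.9 and 9.88 CPM in 3xTg LP-10d, 11.3, 7.89 and 13.3 CPM in 3xTg vehicle and 14.1, 15.9 and 20.7 CPM in WT vehicle libraries. Its highest level, in WT vehicle replicate 3, stood in the library with the highest mitochondrial share. Microglial markers, led by Csf1r, summed to 337 to 362 CPM in 3xTg LP-10d libraries, 361 to 398 CPM in 3xTg vehicle libraries and 299.5 to 391 CPM in WT vehicle libraries.

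For each member the genes most like it over the 9 libraries were taken from 13600 genes by Pearson r of log2 CPM, as a description. The closest to Rela were Fam104a, Rlf and Ppard (r = 0.971, 0.9655 and 0.965), and to Nfkb1 Cep95, Rbm38 and Mcl1 (r = 0.945, 0.942 and 0.937). Nfkb2 was closest to Surf4, Arpc1b and Gstt3 (r = 0.9791, 0.9517 and 0.9411). Relb was closest to Mdp1, Pygb and Trit1 (r = 0.9711, 0.9537 and 0.952). Nfkbia was closest to Apold1, Dnd1 and Stac3 (r = 0.9423, 0.938 and 0.9219). Tnfaip3 was closest to Tmem248, Smg6 and Med24 (r = 0.9515, 0.9434 and 0.9336). Icam1 was closest to Fxyd2, Dtx2 and Slc12a8 (r = 0.9177, 0.9137 and 0.9089). Vcam1 was closest to Osbpl7, Cul4b and Fam189a2 (r = 0.9437, 0.9432 and 0.9427). Birc3 was closest to Med11, Slc31a2 and Fancf (r = 0.95, 0.9341 and 0.9294). No member was among the 3 genes closest to another.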

How the data were processed

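RNA of 9 hippocampus libraries was analysed from 2 deposited tables, 1 of counts per gene and 1 of FPKM. The authors' deposited counts are whole numbers of reads per gene, and their deposited FPKM are those counts scaled by gene length and library total. The submitters' processing notes name build mm10. Which aligner and counter were used, and with which strand setting, is not given in the sources used here. Per the labels' protocols, RNA was extracted with TRIzol and RNeasy columns and 300 ng went into an MGIEasy kit.

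Counts of 17396 genes that passed edgeR's filterByExpr were scaled by TMM and tested with edgeR's quasi-likelihood test (edgeR 4.0.16, R 4.3.3) in 1 fit of all 9 libraries, with Benjamini-Hochberg adjustment over these genes. The SE is the absolute log2 fold change over the square root of F. CPM use the TMM-scaled library sizes of the genes tested. Alternatives were DESeq2 1.42.0, limma 3.58.1 (voom on counts, trend on log2 FPKM with pseudocounts of 0.1 and 1), other scalings and filters, a replicate block and leaving libraries out. Replicates of a group all differed beyond sampling noise.

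The members and lists were chosen with earlier results of these data known. Named pathway genes were, in each comparison, the 4 with the smallest unadjusted p, and always Rel, Chuk, Ikbkb, Ikbkg, Tnf, Il1b, Nfkbiz and Ccl2. Each member's 3 most alike genes and the most abundant gene of each marker list were also named by rule; the other cytokines (Il1a, Il6 and Il18) and the targets Bcl2l1, Sod2, Cxcl10, Ccl5, Cxcl1, Cxcl2, Sele, Selp and Saa3 were named after their values were seen. With 3 libraries against 3, an exact permutation test of a single gene could not give a two-sided p below 0.10 and was not used. Deviations from the group means correlated weakly between same-numbered libraries of 3xTg LP-10d and 3xTg vehicle (r = 0.173, 0.104 and 0.375 across genes). With WT vehicle these correlations were -0.178 to 0.160. In 5 of 18 choices the best match among the 3 libraries of another group had the same number. These values do not establish that same-numbered libraries are pairs. Direction within same-numbered pairs was read only between 3xTg LP-10d and 3xTg vehicle, a choice made from these correlations. The labels do not say what a number stands for.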

Additional observations from a re-analysis of the deposited data

How the results depend on the processing

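Under edgeR and all alternatives (21 for 3xTg LP-10d against 3xTg vehicle, 20 for the others) 0 of the 9 members passed the adjusted threshold in any comparison, and the smallest adjusted p of a member over the alternatives was 0.151. The number of all genes called in 3xTg vehicle against WT vehicle was 1, and it was 352 with DESeq2, 3 with no filter on low counts, 3 and 2 with limma on log2 FPKM at pseudocounts of 0.1 and 1, and 0 to 11 when 1 library was left out. In 3xTg LP-10d against 3xTg vehicle DESeq2 called 1 gene, and in 3xTg LP-10d against WT vehicle it called 46, with 0 to 2 when 1 library was left out. Of the pathway list DESeq2 called 1 gene in 3xTg vehicle against WT vehicle. Direction reversed under at least 1 alternative in 8 of the 27 log2 fold changes of members. On log2(FPKM + 1) the values of Icam1 in 3xTg LP-10d against 3xTg vehicle, Vcam1 in 3xTg vehicle against WT vehicle and Nfkb1 in 3xTg LP-10d against WT vehicle were -0.18, -0.23 and -0.097. Without both libraries that stood apart, Rela and Tnfaip3 were at 0.013 and 0.13 in 3xTg vehicle against WT vehicle and Nfkb2 at -0.085 in 3xTg LP-10d against 3xTg vehicle. Leaving out 1 library gave, in 3xTg vehicle against WT vehicle, -0.34 to 0.16 for Nfkb2, -0.23 to 0.11 for Relb and -0.23 to 0.067 for Tnfaip3. It gave -0.089 to 0.20 for Nfkb2 and -0.088 to 0.0047 for Rela in 3xTg LP-10d against 3xTg vehicle, and -0.33 to 0.17 for Nfkb2 and -0.23 to 0.16 for Birc3 in 3xTg LP-10d against WT vehicle. The cause was not tested. With the replicate block in the fit of all 9 libraries the genes called numbered 1, 0 and 0 in the 3 comparisons. A block in a fit of only the 6 libraries of 3xTg LP-10d and 3xTg vehicle, chosen after seeing the data, called 1 gene against 0 without it. The block changed no call of a member or pathway gene in either fit. Over the 9 libraries 5 of 18 best matches had the same number. Counts of 30 to 105 per library limit the precision for Birc3, Icam1 and Nfkb2.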
